A study of Mus musculus with 12 samples.

Results

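Anti-PD-L1 was compared with no treatment in CD8+ T cells that did not show the A2AR reporter. A2AR, encoded by Adora2a, is the adenosine receptor through which extracellular adenosine restrains T cells. The cells were sorted from AT-3 ova tumors, a mouse mammary carcinoma line that expresses ovalbumin, and the comparison uses 6 of the 12 libraries of the series, chosen by their labels alone. The 3 anti-PD-L1 GFP- libraries carry the codes KT20, KT22 and KT24, and the 3 non-treated GFP- libraries the codes KT14, KT16 and KT18. All mice were female C57BL/6 A2AR eGFP reporter mice, aged 6 to 16 weeks, of the line Tg(Adora2a-EGFP)EP141Gsat, in which Adora2a regulatory sequences on a bacterial artificial chromosome drive EGFP. GFP- therefore means that this transgene was not detected, not that Adora2a was absent. Each mouse received 500000 tumor cells under the skin, treated mice were given anti-PD-L1 on days 14 and 18, and tumors were taken on day 21. Each library pooled cells of 3 mice. Whether non-treated mice received an isotype control is not given in the sources used here.

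PD-1 is an inhibitory receptor that T cells put on their surface after antigen contact, and PD-L1 is its ligand on tumor and myeloid cells. When the pair meets, phosphatases recruited to PD-1 dampen signals from the T cell receptor and CD28. Antibodies to PD-L1 prevent this contact, and in tumors they are known for restoring effector functions of CD8+ T cells, such as the release of perforin and granzymes onto target cells and the secretion of chemokines and interferon gamma. Adenosine acts on the same cells through A2AR and cyclic AMP.

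The measurement was QuantSeq 3′ RNA-sequencing, which reads the 3′ ends of transcripts. Total counts were 16440398 to 19023900 in the non-treated and 13413916 to 13760772 in the anti-PD-L1 libraries, without overlap (two-sided exact permutation test, p = 0.1, the smallest that 3 against 3 allows). Levels below are CPM, the counts of a gene relative to the library total after scaling the libraries by the TMM factors of edgeR, and they compare libraries, not different genes. Cd8a lay between 1097 and 1363 CPM and Cd3e between 173 and 247 CPM, while Cd4 was at 0 in KT16 and in all anti-PD-L1 libraries and reached 0.926 CPM elsewhere. Other markers on the CD4 and regulatory T cell list were present in all 6 libraries, Foxp3 at 15.1 to 25.0 CPM and Ikzf4 at 53.6 to 77.1 CPM. The list summed to 264 to 346 CPM without and to 346 to 417 CPM with anti-PD-L1, most of it from Ctla4. Adora2a was lower in every GFP- library (19.7 to 34.6 CPM when all 12 libraries were scaled together) than in every GFP+ library (60.2 to 111 CPM). In bulk samples, fewer cells of a type and less RNA per cell cannot be told apart.

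Among 13122 genes tested, 12 were higher and 43 were lower after anti-PD-L1 at an adjusted p under 0.05 (edgeR quasi-likelihood test), which are 0.0914% and 0.328% of the genes tested. These are the genes called below. Of the 12 higher genes, 11 code for proteins, and they include Prf1, Gzmb, Gzma, Ccl5, Ccl3 and Havcr2, the genes of perforin, granzymes B and A, a pair of chemokines and the inhibitory receptor TIM-3. Of the 43 lower genes, 30 are small nuclear RNA genes, 12 code for proteins and 1 is a processed pseudogene. The protein-coding genes called lower include Klf2, Lmna, Cxcl10, Lyz2, C1qa and Tyrobp. The median log2 fold change of all genes tested was -0.0071, and 6390 of the 13122 were above 0. All 3 anti-PD-L1 libraries lay above all 3 non-treated libraries in 5.97% of the genes tested and below them in 6.35%, and unadjusted p-values were under 0.05 with a higher value in 3.23% and with a lower value in 4.46%. A member that is merely separated between the groups has to be read against these shares.

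The number of calls depended on single libraries and on the small nuclear RNA genes. Leaving out 1 library at a time gave 5 higher genes without KT18, 6 without KT14, 7 without KT22 and 20 without KT16, and the lower genes ranged from 29 without KT24 to 68 without KT16. With all small nuclear RNA genes removed from the table, 7 genes were higher and 8 were lower in total. When the 6 GFP+ libraries joined the fit and shared its estimate of the spread, 1 gene was higher (Prf1) and 17 were lower.

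**Figure D1:**
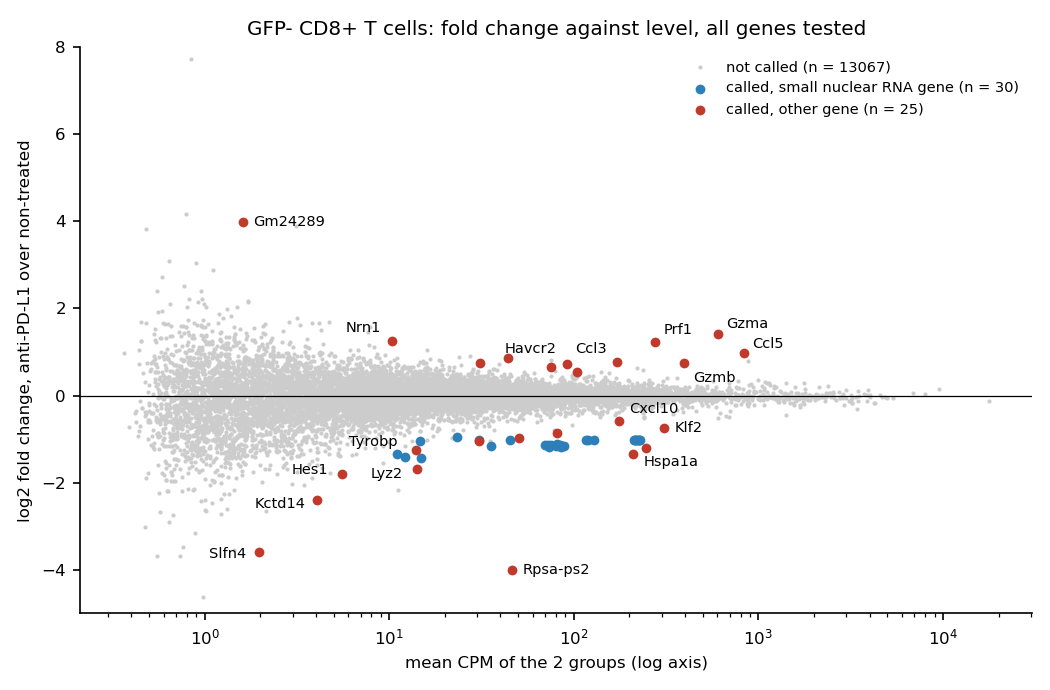
Log2 fold change of anti-PD-L1 over non-treated GFP- libraries (vertical axis) against the mean CPM of the groups (horizontal log axis) for the 13122 genes tested. Grey points were not called, the 30 blue points are called small nuclear RNA genes, which form a row near a log2 fold change of -1, and the 25 red points are the other called genes, among them Prf1, Gzma and Ccl5 above 0 and Rpsa-ps2 at -3.99.

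Of 24 genes of the cytotoxic granule, 3 were called higher, namely Prf1, Gzmb and Gzma. Prf1 encodes perforin, the pore-forming protein through which granzymes enter a target cell (chr10:61297833-61304680, plus strand, GRCm38). It was at 173, 174 and 149 CPM in the non-treated libraries KT14, KT16 and KT18 and at 349, 398 and 418 CPM in the anti-PD-L1 libraries KT20, KT22 and KT24. The lowest treated library was thus above the highest non-treated one by far more than the spread within either group. The log2 fold change was 1.23 ± 0.11 (SE), 2.34-fold, with an adjusted p of 1.24e-06 (edgeR), and Prf1 was called in every alternative that was run.

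Gzmb, the gene of granzyme B, a protease that sets off apoptosis in the target (chr14:56258838-56262260, minus strand), was at 284, 344 and 265 CPM without treatment and at 467, 462 and 564 CPM after it. The groups did not overlap, and the log2 fold change was 0.74 ± 0.12 (SE), with an adjusted p of 0.00107 (edgeR). Gzma, which encodes granzyme A (chr13:113093825-113100981, minus strand), was at 272, 370.0 and 348 CPM against 406, 1059.6 and 1177 CPM. Here KT20 was close to the non-treated libraries while KT22 and KT24 were far above them. Its log2 fold change of 1.42 ± 0.23 (SE) had an adjusted p of 0.00147 (edgeR) that did not hold with DESeq2 (adjusted p = 0.183) or with robust estimation of the spread in edgeR (adjusted p = 0.62). Gzma is also on a list of NK cell markers, whose other genes summed to 126 to 142 CPM without treatment and to 92.4 to 118 CPM after it. Of the 6 NK cell markers tested, the 5 besides Gzma had negative log2 fold changes, among them the NK cell receptor gene Ncr1 at 3.67 to 5.90 CPM against 1.22 to 2.72 CPM. With Gzma, the list summed to 403 to 512 CPM and to 523 to 1269 CPM.

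None of the 24 genes of the granule cytotoxicity list was called lower. Of the 24, 17 had a positive log2 fold change and 8 were separated upward, and the median was 0.25, against -0.0071 for all genes. Gzmf (adjusted p = 0.164 by edgeR) and Gzmk (adjusted p = 0.18 by edgeR) were also separated upward, with log2 fold changes of 1.05 and 0.88, but in both KT24 was far above the other treated libraries. Gzmf was at 12.9, 17.7 and 34.4 CPM after treatment and Gzmk at 21.4, 24.2 and 47.6 CPM. Nkg7, a granule membrane protein, had a log2 fold change of 0.24 (adjusted p = 0.516, edgeR). Gzmc had one of -0.39 (adjusted p = 0.46, edgeR). The granzyme genes on chromosome 14 are close paralogs, and how reads that match several of them were counted is not given in the sources used here.

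**Figure D2:**
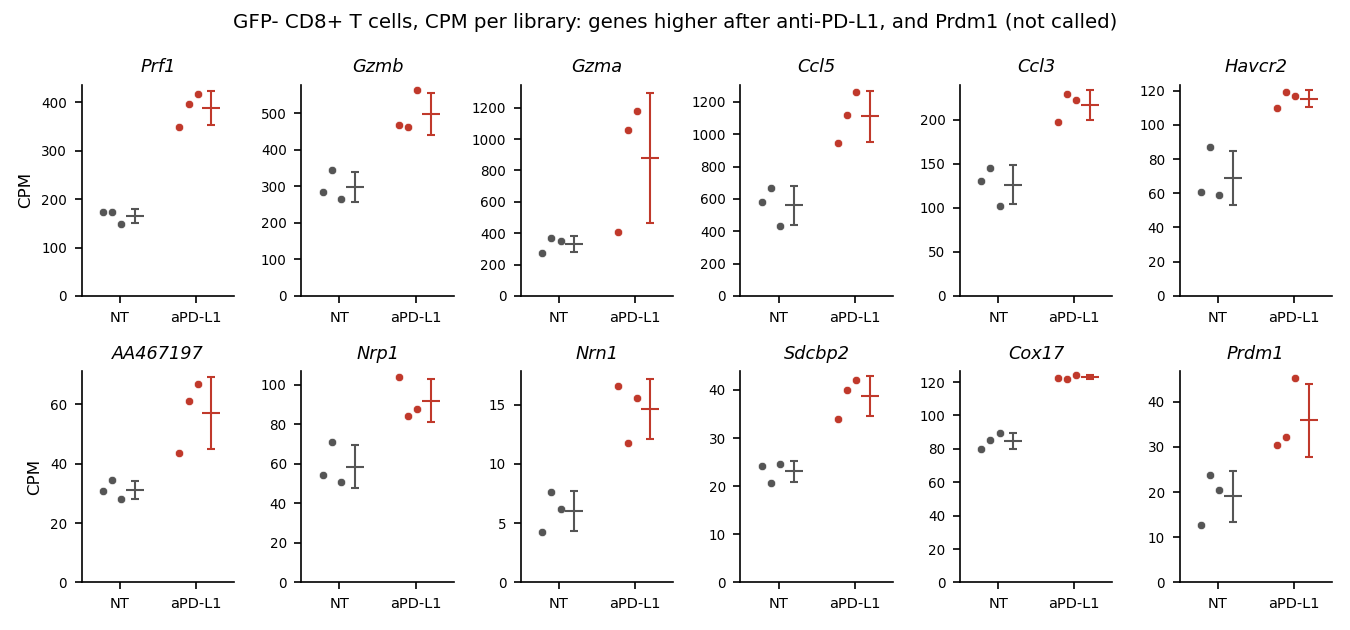
CPM (vertical axes, starting at 0) of the 11 protein-coding genes called higher after anti-PD-L1 and of Prdm1, which was not called, in GFP- libraries. Each point is a library (grey, non-treated, NT; red, anti-PD-L1, aPD-L1; n = 3 each), and the bar beside the points is the mean ± SD. In each of the 12 panels all red points lie above all grey points, narrowly in Gzma, where KT20 is at 406 CPM and the highest non-treated library at 370.0 CPM.

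Chemokine genes moved in both directions. Ccl5 encodes RANTES, which draws T cells and myeloid cells (chr11:83525778-83530518, minus strand). It was at 581, 670.4 and 429 CPM in the non-treated and at 949, 1121 and 1260.4 CPM in the anti-PD-L1 libraries. No treated library came near the non-treated ones, and the log2 fold change was 0.98 ± 0.13 (SE), with an adjusted p of 0.000145 (edgeR). Ccl3, another inflammatory chemokine gene in the same cluster (chr11:83647844-83649355, minus strand), was at 131, 146 and 102 CPM against 198, 229.8 and 223 CPM. It rose by 0.78 ± 0.12 (SE) on the log2 scale, with an adjusted p of 0.00132 (edgeR). Its neighbour Ccl4 was separated in the same direction, with a log2 fold change of 0.58 and an adjusted p of 0.0655 (edgeR).

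Cxcl10, an interferon-induced chemokine that attracts T cells through CXCR3 (chr5:92346638-92348889, minus strand, overlapping Art3 on the other strand), went the other way. It was at 219.8, 188 and 223 CPM without and at 136, 147 and 137 CPM with anti-PD-L1. The treated libraries were tightly grouped below the lowest non-treated one. The log2 fold change was -0.59 ± 0.11 (SE), with an adjusted p of 0.00861 (edgeR) that rose to 0.101 without KT18, 0.0625 without KT20 and 0.052 without KT24. Xcl1, the ligand of the receptor XCR1 on cross-presenting dendritic cells, had a log2 fold change of -0.37 (adjusted p = 0.363, edgeR). Of 11 chemokine genes tested, 2 were called higher and 1 lower, and the median log2 fold change was 0.17.

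Gzmb and Cxcl10 are shown here by the 250 bases before their start sites because they moved in opposite directions and hold partly different motif letters. The sequences are from RefSeq (GRCm38.p6). Capitals mark motif letters, searched on both strands. In Gzmb they are TGANTCA of AP-1 factors and TGTGGTT of Runx factors, and in Cxcl10, from left to right, the interferon-stimulated response element, the NF-kB motif and again TGANTCA.
Gzmb, chr14:56262335-56262584, minus strand: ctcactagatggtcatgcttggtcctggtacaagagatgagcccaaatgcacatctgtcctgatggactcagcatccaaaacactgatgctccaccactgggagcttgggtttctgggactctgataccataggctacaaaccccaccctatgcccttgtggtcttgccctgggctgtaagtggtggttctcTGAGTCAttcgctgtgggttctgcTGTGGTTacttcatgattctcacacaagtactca
Cxcl10, chr5:92348890-92349139, minus strand: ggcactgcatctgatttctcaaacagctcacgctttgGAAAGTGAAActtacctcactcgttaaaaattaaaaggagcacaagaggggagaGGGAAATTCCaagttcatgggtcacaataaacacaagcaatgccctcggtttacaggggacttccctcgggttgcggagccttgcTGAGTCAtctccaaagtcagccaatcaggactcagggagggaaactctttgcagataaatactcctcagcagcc

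The AP-1 letters began 58 bases before the start site in Gzmb and 74 bases before it in Cxcl10, and the Runx letters 34 bases before it in Gzmb. In Cxcl10 the interferon-stimulated letters began 213 bases and the NF-kB letters 159 bases before the start site. The STAT motif TTCNNNGAA was found in Gzmb 38 bases after the start site. Over windows of 250 bases before to 50 bases after the start site, AP-1 letters were present in 8.97% of 27025 genes, Runx letters in 6.09%, STAT letters in 9.55%, interferon-stimulated letters in 3.99% and NF-kB letters in 1.63%. Of the 8 higher and 8 lower protein-coding genes called that have a window in RefSeq, AP-1 letters were in 4 higher (Gzmb, AA467197, Havcr2 and Sdcbp2) and 3 lower genes (Lmna, Slfn4 and Cxcl10). Runx letters were in 3 higher (Gzmb, Gzma and Havcr2) and 2 lower genes (Lmna and Lyz2). STAT letters were in 1 higher (Gzmb) and no lower gene, interferon-stimulated letters in 1 higher (Gzma) and 1 lower gene (Cxcl10), and NF-kB letters in no higher and 1 lower gene (Cxcl10). The overlap of these motifs with other motifs was not examined, and the presence of letters is no measurement of binding.

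Among inhibitory receptors, Havcr2 was called higher. It encodes TIM-3, a receptor of terminally differentiated and exhausted T cells (chr11:46454935-46481255, plus strand). The non-treated libraries were at 60.9, 87.0 and 59.1 CPM and the anti-PD-L1 libraries at 109.6, 119 and 117 CPM. All treated libraries were above KT16, the highest of the non-treated ones, and closer to each other than the non-treated libraries were. The log2 fold change was 0.73 ± 0.14 (SE), with an adjusted p of 0.00885 (edgeR) that rose to 0.0521 without KT14, 0.112 without KT18 and 0.0809 without KT22.

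Of 21 inhibitory receptor genes tested, Havcr2 was the only one called, 15 had a positive log2 fold change, 6 were separated upward and none downward, and the median was 0.21. Cd38, an ectoenzyme that degrades NAD, had a log2 fold change of 0.81 (adjusted p = 0.11, edgeR). Pdcd1, the gene of PD-1, was at 127, 117 and 85.4 CPM against 134, 139.6 and 148 CPM, a separation of the groups with a log2 fold change of 0.35 ± 0.13 (SE) that did not pass (adjusted p = 0.468, edgeR). Adora2a, whose reporter had defined the sort, was at 19.9, 24.4 and 22.8 CPM against 31.6, 34.8 and 26.03 CPM. Its groups were separated as well, with a log2 fold change of 0.46 ± 0.17 (SE) and an adjusted p of 0.473 (edgeR). Ctla4 had a log2 fold change of 0.35 (adjusted p = 0.46, edgeR), and Entpd1, the gene of CD39, had one of 0.42 (adjusted p = 0.46, edgeR). Of 26 genes tested of the adenosine and cyclic AMP pathway, to which Adora2a and Entpd1 belong, none was called, 18 were positive, 4 were separated upward and 1 downward, and the median was 0.037.

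No member of the list of effector and exhaustion transcription factors was called, although 20 of the 28 tested were positive, 7 were separated upward and 1 downward, and the median was 0.14. Prdm1, which encodes the repressor BLIMP-1 of effector and exhausted cells, was nearest to the threshold. It was at 12.7, 23.8 and 20.5 CPM against 30.3, 32.2 and 45.2 CPM, with a log2 fold change of 0.91 ± 0.21 (SE) and an adjusted p of 0.0585 (edgeR). Batf, an AP-1 family factor, had a log2 fold change of 0.49 (adjusted p = 0.229, edgeR), and Tox, a driver of the exhausted state, one of 0.13 (adjusted p = 0.888, edgeR). The cytokine genes Ifng and Tnf were not called either. Ifng was at 506, 399 and 383 CPM against 510.1, 527 and 471 CPM, and Tnf at 61.0, 54.8 and 60.9 CPM against 44.9, 57.1 and 72.2 CPM, with overlapping groups in both. Of 15 cytokine genes tested, none was called and the median was -0.016.

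The other higher protein-coding genes stand outside these lists. AA467197, the transcript that hosts the microRNA gene Mir147, was at 30.8, 34.4 and 28.2 CPM against 43.6, 61.1 and 66.7 CPM. Its log2 fold change was 0.87 ± 0.16 (SE), with an adjusted p of 0.00789 (edgeR) that was 0.0764 without KT18, 0.0845 without KT22 and 0.0868 without KT24. Nrp1, a receptor for semaphorins and vascular endothelial growth factor, was at 54.1, 71.1 and 50.6 CPM against 104, 84.1 and 87.7 CPM (adjusted p = 0.0386, edgeR). Nrn1 encodes neuritin, a membrane-anchored protein first described in neurons, lies opposite to Fars2 and Gm30177, and was at 4.24, 7.64 and 6.24 CPM against 16.6, 11.7 and 15.6 CPM (adjusted p = 0.0331, edgeR).

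Sdcbp2, a PDZ-domain adaptor, was at 24.1, 20.6 and 24.6 CPM against 34.0, 40.0 and 42.0 CPM (adjusted p = 0.0345, edgeR). Cox17, a copper chaperone for cytochrome c oxidase that overlaps Gm21987 on the same strand, was at 79.9, 85.2 and 89.4 CPM against 123, 122 and 124 CPM (adjusted p = 0.028, edgeR). In all of these genes the groups were separated. Without all small nuclear RNA genes in the table the adjusted p was 0.0814 for Nrp1, 0.079 for Nrn1 and for Sdcbp2, and 0.07 for Cox17 (edgeR), and each lost its call in at least 5 of the 6 fits without 1 library. Omitting KT14, KT18, KT22 or KT24 ended the call of Sdcbp2, Cox17, Nrn1 and Nrp1 alike, with adjusted p-values from 0.0501 for Nrn1 without KT22 to 0.275 for Nrp1 without KT18. The twelfth higher gene, Gm24289, a small Cajal body RNA gene inside Tipin, was at 0, 6 and 4 counts against 58, 51 and 17 counts (adjusted p = 0.018, edgeR), and kept its call without KT24 alone.

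Of 22 genes of stem-like and memory T cells tested, 1 was called lower. Klf2 encodes the factor that keeps T cells in circulation by driving S1pr1 (chr8:72319033-72321656, plus strand). It was at 463, 279 and 421 CPM in the non-treated and at 256, 214 and 225 CPM in the anti-PD-L1 libraries. KT16 stood below the other non-treated libraries and only a little above KT20. The log2 fold change was -0.74 ± 0.14 (SE), with an adjusted p of 0.0101 (edgeR) that was 0.0701 without KT14, 0.106 without KT18 and 0.128 without KT22, and 0.0647 with robust estimation of the spread.

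In the stem-like and memory list, 18 of 22 genes tested had a negative log2 fold change, 7 were separated downward and 1 upward, and the median was -0.23. Tcf7, the gene of the factor TCF-1 of stem-like cells, was at 57.4, 67.0 and 55.3 CPM against 45.4, 46.3 and 37.1 CPM, with a log2 fold change of -0.48 ± 0.14 (SE) and an adjusted p of 0.232 (edgeR). Ccr7, a lymph node homing receptor, had a log2 fold change of -0.56 (adjusted p = 0.298, edgeR), and Id3, an inhibitor of E proteins, one of -0.60 (adjusted p = 0.426, edgeR). The exception that was separated upward was Il7r, the receptor of interleukin 7, with a log2 fold change of 0.44 (adjusted p = 0.164, edgeR).

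**Figure D3:**
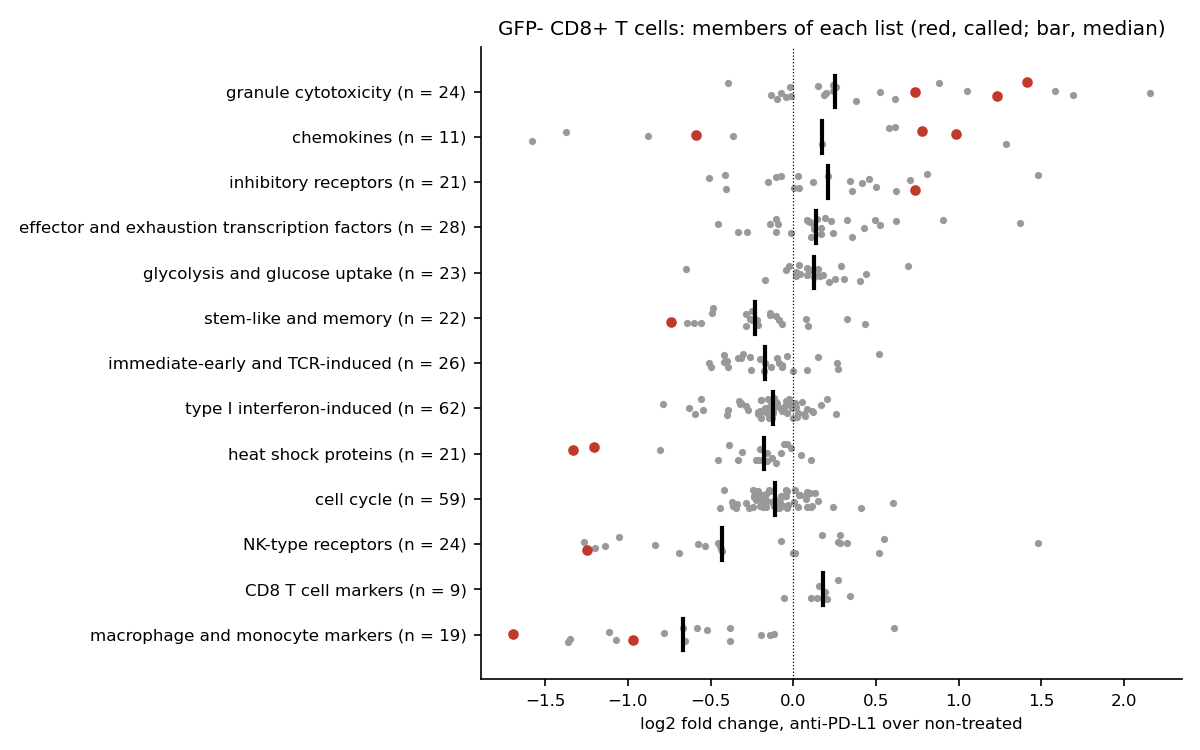
Log2 fold changes of anti-PD-L1 over non-treated GFP- libraries (horizontal axis) for the genes tested of 13 lists. Each point is a gene (red, called; grey, not called; spread vertically for sight) and each black bar the list's median, from 0.25 in granule cytotoxicity to -0.67 in macrophage and monocyte markers.

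Lists tied to acute stimulation and to interferon leaned downward without calls beyond a few genes. Of 62 type I interferon-induced genes tested, none was called, 49 were negative and 14 were separated downward, none upward, with a median of -0.12. Oasl1, an antiviral protein, was at 39.6, 23.4 and 32.1 CPM against 20.1, 19.5 and 15.1 CPM (adjusted p = 0.135, edgeR). Irf7, the factor that amplifies type I interferon, was at 298, 248 and 267 CPM against 191, 199 and 225 CPM (adjusted p = 0.176, edgeR). Among 28 interferon gamma-induced genes tested, Cxcl10 was the only call, and the median was -0.077. Among 26 immediate-early and TCR-induced genes, none was called, 21 were negative, 8 were separated downward and none upward, and the median was -0.17. Nr4a1, a reporter of recent T cell receptor signaling, was at 287, 305 and 275 CPM against 224, 229 and 249 CPM (adjusted p = 0.366, edgeR).

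Hspa1a and Hspa1b, near-identical genes of the inducible chaperone HSP70 of which the first lies opposite to Gm20481, were called lower, but their groups overlapped. Hspa1a was at 393, 130.2 and 374 CPM against 172, 102 and 80.7 CPM, and Hspa1b at 442, 160.0 and 428 CPM against 212, 139.8 and 94.1 CPM. KT16 was below KT20 in both genes. The log2 fold change was -1.33 ± 0.28 (SE) in Hspa1a, with an adjusted p of 0.0234, and -1.20 ± 0.26 (SE) in Hspa1b, with an adjusted p of 0.0398 (edgeR). DESeq2 gave adjusted p-values of 0.492 and 0.565, and omitting KT14, KT18, KT22 or KT24 ended both calls, with adjusted p-values of 0.114 to 0.273 (edgeR). Of 21 heat shock protein genes tested, 19 were negative and 3 were separated downward, with a median of -0.18.

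The cell cycle list had no call among 59 genes tested, 42 of which were negative, with a median of -0.11 (6 separated downward, 1 upward). Mki67, a marker of proliferating cells, was at 87.0, 77.4 and 74.5 CPM against 77.1, 68.0 and 66.7 CPM (adjusted p = 0.831, edgeR). Glycolysis and glucose uptake had no call among 23 genes, 19 of which were positive and 6 separated upward, with a median of 0.13. Slc16a3, a lactate exporter, had a log2 fold change of 0.69 (adjusted p = 0.229, edgeR).

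Calls also fell in lists of other themes. Of 31 IL-2 and STAT5 targets and pathway genes tested, Prf1 and Gzmb were called higher. In this list 5 genes were separated upward and 3 downward, and the median was -0.0045. It is not the published STAT5 signature with which the paper reported higher STAT5 targets after anti-PD-L1 in both A2AR+ and A2AR- cells. That signature was not tested here. Of 29 genes of cytoskeleton and adhesion, Lmna was called lower, while the median was 0.093. Of 24 NK-type receptor genes, Tyrobp was called lower, 9 were separated downward and 5 upward, and the median was -0.43. The members of this list that were separated upward include Klrd1 and Klrc1, the CD94 and NKG2A chains of an inhibitory receptor of activated CD8+ T cells. Klrc1 was at 1216, 1343 and 1276 CPM against 1463, 1450.4 and 1749 CPM (adjusted p = 0.461, edgeR).

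Tyrobp encodes DAP12, the signaling adaptor of activating receptors in NK and myeloid cells (chr7:30413760-30417585, plus strand). It was at 18.0, 21.3 and 19.6 CPM in the non-treated and at 9.81, 7.52 and 7.57 CPM in the anti-PD-L1 libraries, so that the groups were far apart. The log2 fold change was -1.25 ± 0.23 (SE), with an adjusted p of 0.00591 (edgeR) that was 0.0813 without KT22 and 0.058 without KT24. Lyz2, the lysozyme of macrophages and granulocytes (chr10:117277331-117282321, minus strand), was at 17.5, 27.4 and 19.5 CPM against 10.3, 6.30 and 3.33 CPM. It fell in all treated libraries, with a log2 fold change of -1.69 ± 0.29 (SE) and an adjusted p of 0.00287 (edgeR), and held without any 1 library. C1qa, a complement component made by macrophages (chr4:136895917-136898803, minus strand), was at 48.7, 62.7 and 89.0 CPM against 39.7, 32.9 and 29.3 CPM. Its log2 fold change was -0.97 ± 0.19 (SE), with an adjusted p of 0.0101 (edgeR) that was 0.117 without KT18, 0.0994 without KT22 and 0.086 without KT24.

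Of the marker lists for cells outside the CD8 gate, more leaned downward than upward. Of 19 macrophage and monocyte markers tested, 18 were negative, 7 were separated downward and none upward, and the median was -0.67. None of the 20 markers in the table was at 0 in all 6 libraries, and the macrophage marker Adgre1 was at 1.61 to 1.72 CPM without and at 0.501 to 0.945 CPM with anti-PD-L1. The summed CPM of the list overlapped between the groups, at 1864 to 2279 against 1589 to 1926 CPM, most of it from Ly6c2 (1228 to 1562 against 1108 to 1458 CPM), which CD8+ T cells also express. All 5 fibroblast and all 5 red blood cell markers tested were negative, with medians of -1.78 and -0.51, but only 1 of them, a red blood cell marker, was separated. Their sums were highest in a single non-treated library each. Fibroblast markers summed to 15.5, 54.0 and 7.78 CPM against 15.05, 2.58 and 6.66 CPM, and red blood cell markers to 268, 275 and 584 CPM against 290, 252 and 190.1 CPM. Tumor epithelial (4 of 4 negative, median -0.67), neutrophil (2 of 2, -1.08), endothelial (2 of 2, -0.73) and B cell markers (2 of 3, -0.36) also leaned downward. B cell markers summed to 102 to 114 against 73.2 to 87.4 CPM, most of it from Ighm. For neutrophil markers the sums were 5.66 to 17.2 against 4.22 to 5.30 CPM. Neither sum overlapped (two-sided exact permutation test, p = 0.1 each), while those of tumor epithelial and endothelial markers did. Dendritic cell markers (3 of 5 positive, median 0.33), gamma delta T cell markers (3 of 4 positive, median 0.25) and CD4 and regulatory T cell markers (3 of 5 positive, median 0.15) leaned the other way. The 9 CD8 T cell markers had a summed CPM of 5273 to 5458 without and of 5846 to 6230 CPM with anti-PD-L1, without overlap (two-sided exact permutation test, p = 0.1, adjusted p = 0.257 over 18 measures of the libraries). The part of other cells in the fall of Lyz2, C1qa, Tyrobp and the other lower genes, Cxcl10 among them, was not tested.

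**Figure D4:**
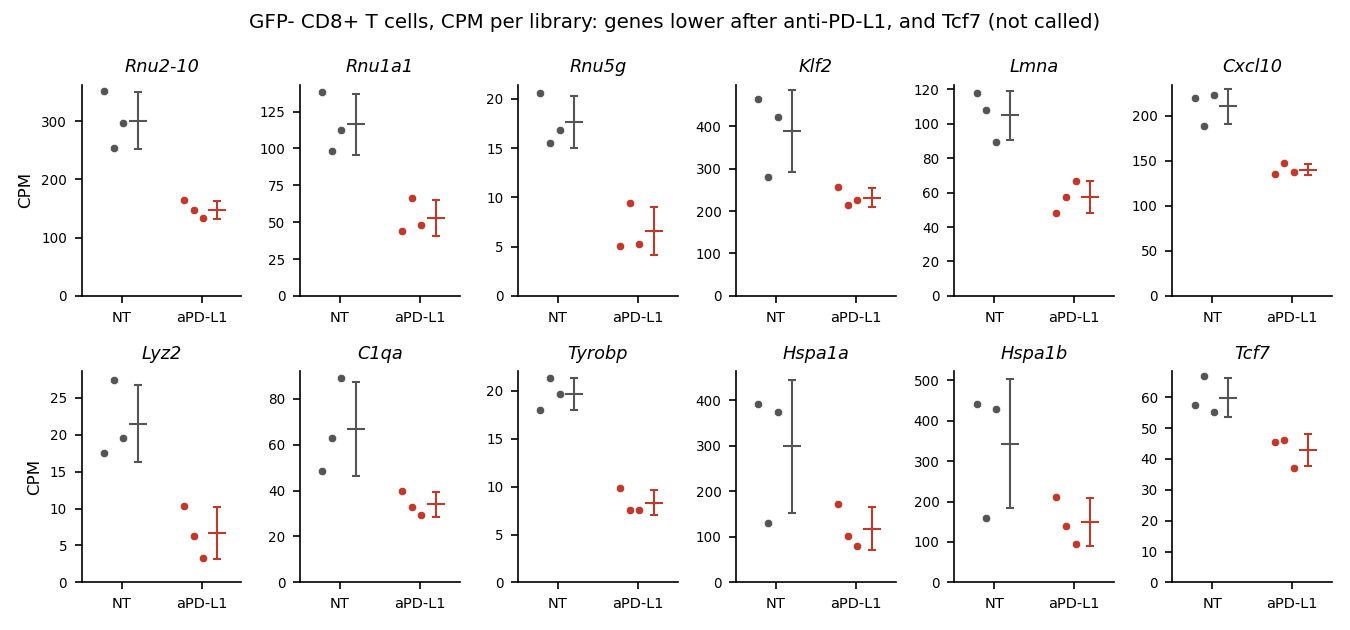
CPM (vertical axes, starting at 0) of 11 genes called lower after anti-PD-L1 and of Tcf7, which was not called, in GFP- libraries. Each point is a library (grey, non-treated, NT; red, anti-PD-L1, aPD-L1; n = 3 each), and the bar beside the points is the mean ± SD. All red points lie below all grey points except in Hspa1a and Hspa1b, where 1 non-treated library, KT16, is at 130.2 and 160.0 CPM.

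Further lower protein-coding genes were Lmna, Rhob, Hes1, Kctd14 and Slfn4. Lmna, the gene of the nuclear lamins A and C (chr3:88480147-88509956, minus strand), was at 118, 108 and 89.5 CPM against 48.2, 57.6 and 66.9 CPM. All treated libraries were below all non-treated ones, with a log2 fold change of -0.87 ± 0.14 (SE) and an adjusted p of 0.00142 (edgeR), also without any 1 library. Slfn4, a Schlafen family member known from myeloid cells, had 48, 68 and 76 counts without and 5, 4 and 3 counts with anti-PD-L1 (adjusted p = 0.0069, edgeR). These counts are low, and its adjusted p was 0.0787 without KT20, 0.128 without KT22 and 0.119 without KT24.

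Rhob, a small GTPase, was at 51.3, 24.6 and 48.5 CPM against 21.9, 19.7 and 18.5 CPM (adjusted p = 0.0367, edgeR). Hes1, a repressor induced by Notch, was at 6.02, 11.2 and 8.52 CPM against 3.71, 1.43 and 2.35 CPM (adjusted p = 0.0433, edgeR). Kctd14 was at 7.85, 3.82 and 8.83 CPM against 1.16, 1.58 and 1.06 CPM (adjusted p = 0.0234, edgeR). All 3 genes were separated between the groups, and each lost its call in 5 of the 6 fits without 1 library, with adjusted p-values up to 0.38 for Hes1 without KT22, 0.212 for Rhob without KT22 and 0.159 for Kctd14 without KT24. Without small nuclear RNA genes in the table the adjusted p was 0.079 for Rhob, 0.0916 for Hes1 and 0.0592 for Kctd14 (edgeR).

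The most numerous lower genes were small nuclear RNA genes, the RNA parts of the spliceosome. These RNAs find the ends of introns by base pairing: U1 pairs with the 5′ splice site, U2 with the branch point, and a loop of U5 holds the exons together. The sequences of Rnu1a1 and Rnu2-10 are printed because their copies across the genome are near-identical, so that a read often matches many genes. They are in GENCODE vM21 on GRCm38, and capitals mark the pairing element.
Rnu1a1, U1, chr11:87422867-87423030, plus strand, capitals at the 5′ splice site pairing bases 3 to 11: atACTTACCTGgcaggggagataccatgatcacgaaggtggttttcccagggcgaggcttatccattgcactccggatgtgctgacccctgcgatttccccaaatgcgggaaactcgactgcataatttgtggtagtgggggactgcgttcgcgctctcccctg
Rnu2-10, U2, chr11:101658238-101658428, plus strand, capitals at the branch point pairing bases 33 to 38: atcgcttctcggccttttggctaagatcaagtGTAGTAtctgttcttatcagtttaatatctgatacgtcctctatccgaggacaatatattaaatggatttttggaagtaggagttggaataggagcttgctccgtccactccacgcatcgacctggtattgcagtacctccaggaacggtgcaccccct

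Rnu2-10 was at 352, 253 and 298 CPM in the non-treated and at 164, 148 and 133 CPM in the anti-PD-L1 libraries. The groups did not overlap, and the log2 fold change was -1.02 ± 0.12 (SE), with an adjusted p of 8.54e-05 (edgeR). Gm23971, another U2 gene, was at nearly the same level in each library, at 359, 259.8 and 306 CPM against 170.3, 149 and 133 CPM. Rnu1a1, which lies inside Tex14, was at 139, 98.1 and 112 CPM against 44.0, 66.4 and 48.2 CPM, and had a log2 fold change of -1.13 ± 0.15 (SE) and an adjusted p of 0.000144 (edgeR). Rnu5g, a U5 gene opposite to Parp16, was at 20.6, 15.5 and 16.8 CPM against 5.09, 9.38 and 5.30 CPM. It had a log2 fold change of -1.41 ± 0.26 (SE) and an adjusted p of 0.0086 (edgeR) that was 0.0963 without KT20 and 0.0868 without KT24.

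The 30 small nuclear RNA genes called are not 30 separate measurements. At 90% identity or more they joined into 5 groups, of which the group of Rnu1a1 held 13 called genes, the group of Rnu2-10 held 11, the group of Rnu5g held 3, and 2 groups of unnamed genes held 2 and 1. Genes of clearly different length could not join. The single gene, Gm23744 (149 bases), had 3231, 2506 and 2490 against 1207, 994 and 918 counts. The U2 gene Gm25360 (191 bases) had 3293, 2585 and 2558 against 1238, 1034 and 938. The 5 groups therefore need not be separate measurements either. The called members of the Rnu2-10 group were at least 97.9% identical to Rnu2-10, and those of the Rnu1a1 group at least 96.4% identical to Rnu1a1. With 1 gene kept per group, 5 small nuclear RNA genes were called and the lower genes numbered 15. Of all 62 small nuclear RNA genes tested, 56 were negative and 42 were separated downward, 2 upward, and the median log2 fold change was -1.03. Together they took 0.397% to 0.520% of all counts without and 0.195% to 0.237% with anti-PD-L1, without overlap (two-sided exact permutation test, p = 0.1, adjusted p = 0.257 over 18 measures). Ribosomal protein genes took 14.5% to 15.7% and 14.8% to 15.3%, and mitochondrial genes 2.70% to 3.05% and 2.51% to 2.75%. Small nuclear RNAs carry no poly(A) tail in their mature form. Total counts were also lower in every treated library, as given above, and their part in the fall of these genes was not tested.

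The remaining lower gene, Rpsa-ps2, is a processed pseudogene of the ribosomal protein gene Rpsa (chr10:128776371-128777250, minus strand), named here after its values were seen. It was at 79.3, 115 and 67.8 CPM against 6.03, 4.44 and 6.05 CPM, with a log2 fold change of -3.99 ± 0.24 (SE) and an adjusted p of 8.28e-10 (edgeR). Reads of Rpsa can match it, so its value is uncertain. Among GFP+ libraries it was at 65.8 CPM in the non-treated KT17 and at 31.3 CPM in the anti-PD-L1 KT21, and at 2.38 to 7.65 CPM in the other 4.

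The same treatment comparison in GFP+ cells was set beside these changes. In GFP+ cells, 0 of 13230 genes were called (0%, edgeR over 3 against 3 libraries), with 642 at an unadjusted p under 0.05 and 36 called by DESeq2. In an alternative without KT13 and KT21, which was chosen with earlier results of these libraries known, 59 genes were called higher and 80 lower in GFP+ cells, 1.03% of 13461. Of the 55 genes called in GFP- cells, 54 were tested in GFP+ cells, and all 54 had the same sign there, as did 24 of the 24 that are not small nuclear RNA genes. Over all 12714 genes tested in both, 57.3% had the same sign. Without KT13 and KT21, 46 of the 55 were called in GFP+ cells too, 16 of them no small nuclear RNA genes. No library is shared by the comparisons, but the labels do not tell whether GFP- and GFP+ libraries came from the same mice.

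Side by side, Prf1 had a log2 fold change of 1.23 in GFP- and 1.704 in GFP+ cells, and Ccl5 had 0.98 and 0.999. Ccl3 rose by 0.78 in GFP- cells and had 1.43 in GFP+ cells. Klf2 had -0.74 and -1.18, Rnu2-10 -1.02 and -0.92, and Tyrobp -1.25 and -0.19. The test of the difference itself, the interaction of reporter status and treatment over all 12 libraries, called 0 of 14173 genes (0%, edgeR, smallest adjusted p = 0.99988), with 384 at an unadjusted p under 0.05. Without KT13 and KT21 it also called 0 (667 at an unadjusted p under 0.05), as did DESeq2, while without a filter on low counts it called 6. In the fit of all 12 libraries the GFP- comparison itself called only 1 higher and 17 lower genes. The 0 calls of the interaction there therefore do not show that the change was equal in GFP- and GFP+ cells. Of the genes called in GFP- cells, Rpsa-ps2, Ccl3, Tyrobp and Kctd14 had an unadjusted interaction p under 0.05. For Tyrobp the change in GFP- cells was 1.06 ± 0.27 (SE) lower on the log2 scale than in GFP+ cells, with an adjusted p of 0.99988 (edgeR) that did not pass.

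**Figure D5:**
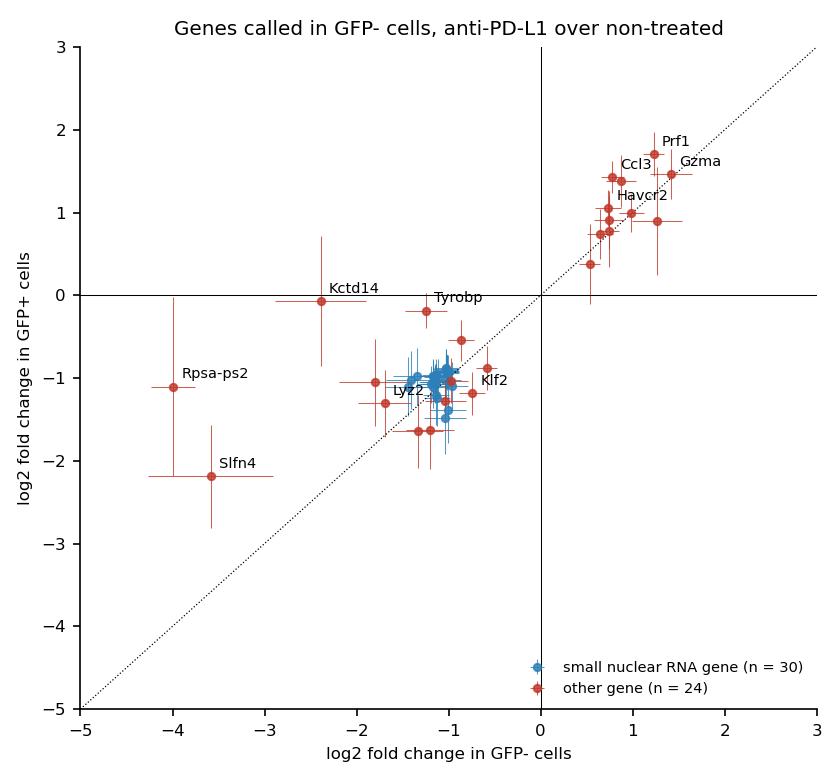
Log2 fold changes of anti-PD-L1 over non-treated in GFP- (horizontal axis) and in GFP+ cells (vertical axis) for the 54 genes called in GFP- cells and tested in both. Points are genes (blue, 30 small nuclear RNA genes; red, 24 others), bars are standard errors and the dotted line marks equal change. All points have the same sign on both axes, and Tyrobp, Kctd14 and Rpsa-ps2 lie nearest to 0 in GFP+ cells relative to their change in GFP- cells.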

How the data were processed

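CD8+ T cells were sorted by GFP from AT-3 ova tumors. Labels gave the group of every library. The authors deposited raw read counts for 52636 Ensembl genes. The methods name Cutadapt v2.1 for trimming the 75 bp reads, HISAT2 for alignment (mm10) and featureCounts of Rsubread v2.10.5 for counting, whereas the submitters' processing notes name cutadapt 1.7 and Subread 1.6.4. The Ensembl release, the strand setting and the counting of reads with several matches are not given in the sources used here.

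Only the 6 GFP- libraries entered the main fit. Genes were kept by filterByExpr, scaled by TMM and compared with the quasi-likelihood test of edgeR 4.0.16 in R 4.3.3 without covariates, with Benjamini-Hochberg adjustment over all genes at 0.05. Alternatives used DESeq2 1.42.0, limma 3.58.1 (voom), other scalings and filters, other sets of libraries, and each library left out. The fits were tested on simulated data. Symbols came from GENCODE vM21 and matched 52489 identifiers. Measures of libraries were compared by exact permutation.

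The comparison and the gene lists were chosen with earlier results of these data known, so counts over lists are descriptions. Genes were named where called with separated libraries (up to 20 per direction), where called within a list (up to 4 per direction, or up to 2 uncalled genes by unadjusted p), among 12 genes fixed by name, or among the 5 smallest interaction p-values. Other genes were named after their values were seen. P-values measure the spread between libraries of pooled mice, and reads carry no molecular identifiers, so counts are not independent molecules.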

Additional observations from a re-analysis of the deposited data

Results flagged for a closer look

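Among genes named by the smallest unadjusted interaction p, 3 moved in opposite directions in GFP- and GFP+ cells, with all treated libraries on one side of all non-treated ones in each. Gm37017 had a log2 fold change of 2.18 in GFP- and of -1.57 in GFP+ cells, at low levels of 0.0567 to 4.81 CPM. Aldh16a1 had -0.58 in GFP- and 0.80 in GFP+ cells, and 3110009E18Rik had 0.80 and -0.78. They were picked for this difference among 14173 genes, and its test did not pass in any of them (adjusted p = 0.99988, edgeR interaction).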

How the results depend on the processing

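The main counts were 12 higher and 43 lower genes. DESeq2 gave 25 and 66, no filter beyond 1 count 44 and 97, and all 12 libraries in the fit 1 and 17. In settings added after seeing the data, removing small nuclear RNA genes gave 7 and 8, and keeping 1 gene per near-identical group gave 8 and 15. Leaving out each library gave 5 to 20 higher and 29 to 68 lower genes, and other settings stayed within 1.5 times. The interaction gave 0 genes and 6 without a filter. The GFP+ comparison gave 0 genes, 139 without KT13 and KT21, 36 with DESeq2, and 0 to 1 with 1 library left out. No log2 fold change of a called gene reversed, while that of Tnf, -0.02 with all libraries, became 0.0060 without KT14, 0.0052 without KT18 and 0.14 without KT20, in a range of -0.20 (without KT24) to 0.14. Prf1 was called in all 18 settings and Rnu2-10 in the 17 that kept it, and every called protein-coding gene besides Prf1 lost its call in at least 1. The cause was not tested. Slfn4 had at most 5 counts in each treated library, so its fold change is imprecise. No paired analysis was run because the labels give no pairing of libraries. The interaction test treated all 12 libraries as independent, although GFP- and GFP+ libraries may have come from the same mice.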

Other observations

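Several programs of T cell biology had no call in GFP- cells (edgeR). Over all 13122 genes tested, 5.97% were separated upward and 6.35% downward. Of 76 nuclear-encoded respiratory chain genes tested, 46 were positive, 8 were separated upward and 1 downward, with a median log2 fold change of 0.020. Of 36 genes of the TCR complex and proximal signaling, 21 were positive and 4 were separated upward, with a median of 0.078. Of 22 genes of MHC class I presentation, 14 were positive and 1 was separated upward, with a median of 0.031. Of 19 costimulatory receptors, 12 were positive and 2 were separated upward, with a median of 0.057, and of 19 integrins, 13 were positive and 4 were separated upward, with a median of 0.060.

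Lists with more negative than positive values and no call included cholesterol synthesis, where 15 of 23 genes were negative, 6 were separated downward and 1 upward, and the median was -0.064. Of 78 cytosolic ribosomal proteins 53 were negative, but the median was -0.023 and none was separated downward. Of 13 small nucleolar RNA host genes 12 were negative, 2 were separated downward, and the median was -0.21. Of 16 tissue residency genes 10 were negative, with a median of -0.045. Close to evenly split were NF-kB targets, with 10 of 20 genes negative and a median of -0.032, and apoptosis and survival, with 13 of 27 negative and a median of 0.0049.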
